A study of Drosophila melanogaster with 2 samples.

Results

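Slit, the Netrins and their receptors steer growing axons towards or away from the midline of the embryonic nerve cord. The 8 genes described here are the ligand genes sli, NetA and NetB and the receptor genes robo1, robo2, robo3, fra and unc-5, taken by name from the 13945 protein-coding genes annotated on the 6 chromosome arms used. Each was given a territory, made of its annotated body and the 2 kb before its 5' end. Binding of the transcription factor Gcm in these territories was read from summits, the point of highest enrichment that a peak caller reports within each peak of a chromatin immunoprecipitation sequencing (ChIP-seq) experiment.

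Slit is a repellent protein secreted by midline glia, and axons read it through the Robo receptors. Netrin-A and Netrin-B are secreted proteins of midline cells and some targets, which attract axons through Frazzled, the fly member of the DCC receptor family, and can repel them through Unc-5. Gcm (glial cells missing) switches embryonic neural precursors to the glial fate and also acts in blood cell precursors, whereas midline glia are known to form under another regulator, Sim.

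The embryos were 0 to 16 hours old, of both sexes, and came from a transgenic line in which green fluorescent protein is joined to the C-terminus of Gcm. Whole embryos were used, and the tag was precipitated with an antibody against green fluorescent protein. The single group, gcm-GFP embryos, held 2 biological replicates, numbered 1 and 3, which carry the same donor label, and no sample of another genotype, stage or treatment was analysed here. A summit in these data therefore carries no information on which cells of the embryo, or which hours within the collection, it came from. Which promoter drives the fusion is not stated in the labels.

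The authors deposited 4 peak lists. Each replicate and the pool of both had a list of 30000 peaks, and a list of 5707 peaks had passed a threshold on the irreproducible discovery rate (IDR). Such a threshold keeps peaks that rank alike between the lists compared. The list of 5707 was deposited as the optimal one and derived from both replicates. Which lists were compared to make it was not established here. Peak height is the caller's signal value, which depends on the list, so replicates are compared by rank and not by signal. It ran from 190 to 5118 in the IDR-thresholded list, with a median of 299, and these were the 5707 peaks of highest signal in the pooled list. Median signal was 50.9 in replicate 1 and 42.6 in replicate 3. Rank 1 is the strongest peak of a list, and each replicate was also read through its own 5707 strongest peaks, which reached down to a signal of 110 in replicate 1 and 89.7 in replicate 3. Read depth is unknown, because the lists give no totals of reads. At gcm itself, 1 IDR-thresholded summit had signal 552 and rank 937.

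Gcm summits lay at most genes of the Slit and Netrin systems. Of the 8 genes, 6 held at least 1 IDR-thresholded summit (sli, robo2, fra, NetA, NetB and unc-5), against 28.2% of all protein-coding genes. In the pooled list 7 of 8 held a summit, against 51.2% of all protein-coding genes, and robo3 was the exception. The guidance genes are long, with a median territory of 42.3 kb against 4.17 kb over all protein-coding genes, and long genes hold summits more often. Of the 1143 genes with a territory of at least 20 kb, 58.5% held an IDR-thresholded summit. For each member, genes of like length were those with a territory within 25% of its own. Across the 8 members, 42.0% (robo1) to 62.9% (NetB) of such genes held an IDR-thresholded summit. A pooled summit was held by 66.9% (robo1) to 79.2% (unc-5) of them. The 6 of 8 and 7 of 8 are to be read against these ranges rather than against 28.2% and 51.2%.

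The 8 territories span 333.836 kb and held 24 IDR-thresholded summits, which is 0.719 per 10 kb, against 0.492 per 10 kb in the territories of all protein-coding genes. The pooled list placed 151 summits there, 4.52 per 10 kb against 2.42 per 10 kb. Replicate 1 placed 151 and replicate 3 placed 150 of their own 30000 summits in the same territories. Among their 5707 strongest peaks, replicate 1 had 25 and replicate 3 had 23. The mean over the replicates was 24 ± 1.41 strong summits (SD, n = 2). These are numbers of summits in the territories, and the sites counted were not all the same in both replicates. The median height of the 24 was 294, near the list median of 299.

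**Figure D1:**
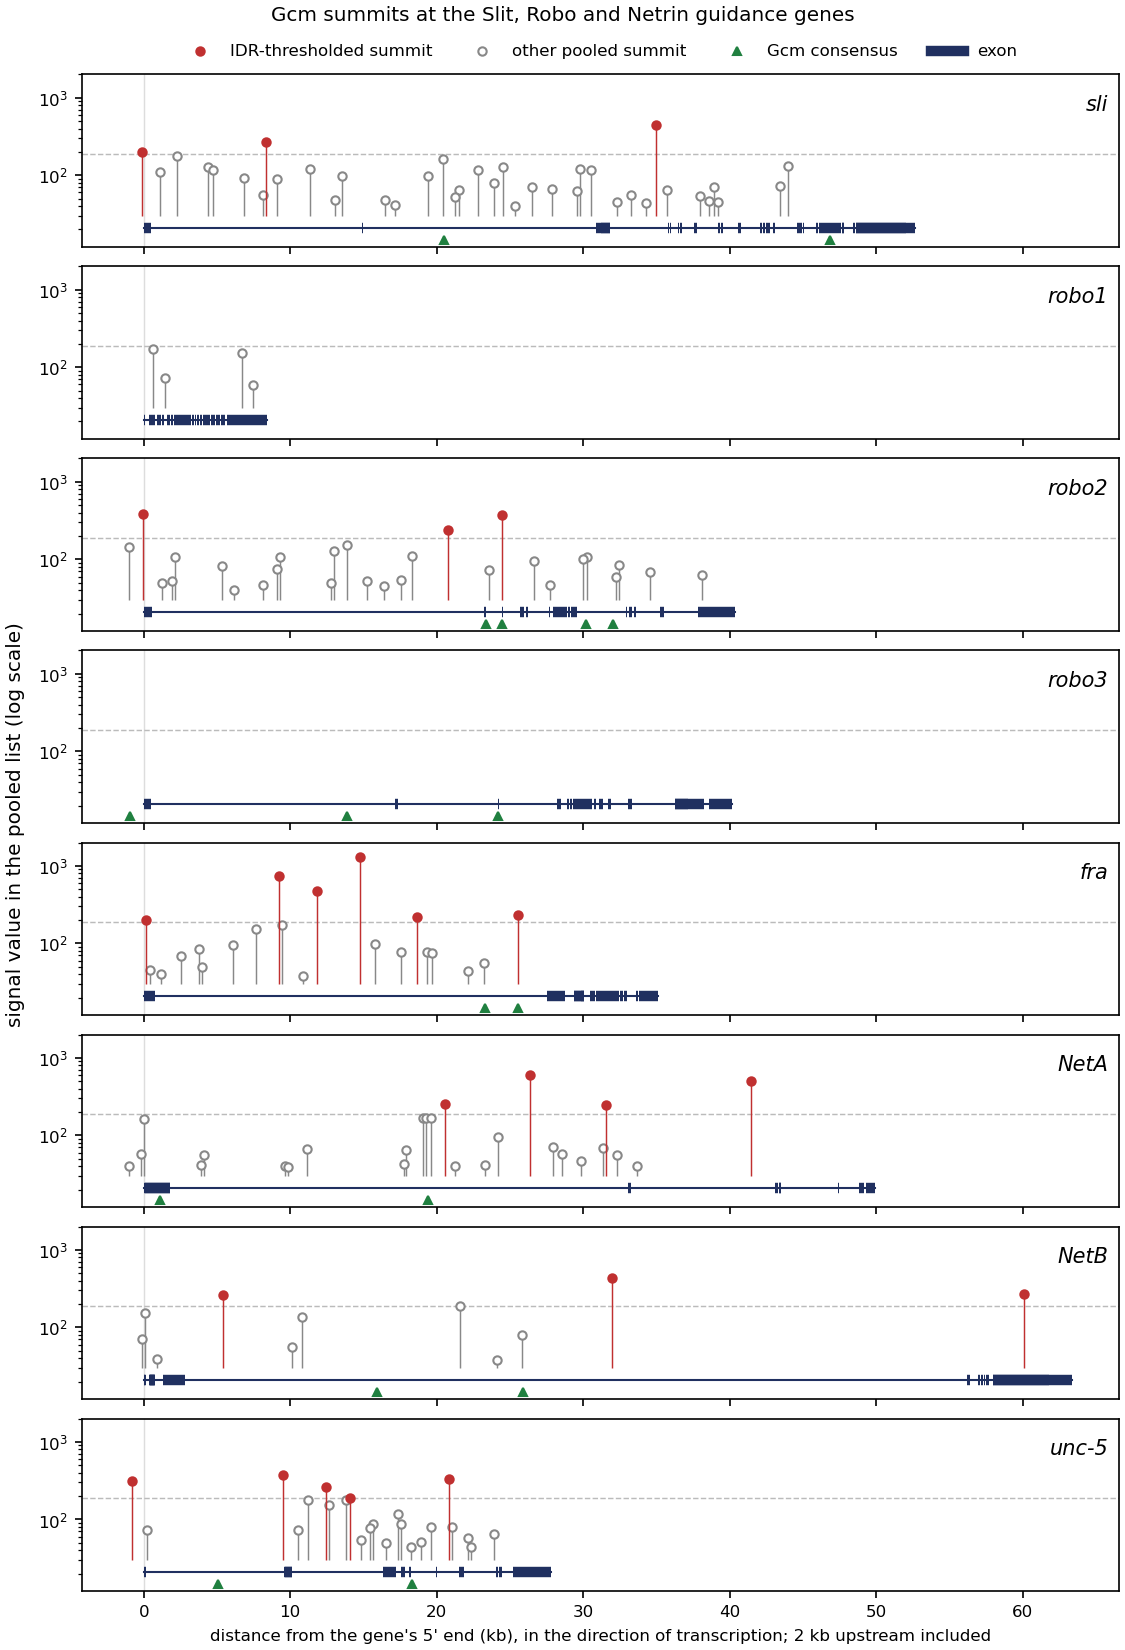
Summits along each guidance gene, with the distance from the gene's 5' end in kb on the horizontal axis and the signal value in the pooled list on a logarithmic vertical axis. Filled circles are the 24 IDR-thresholded summits, open circles the other 127 pooled summits, triangles the matches to the Gcm consensus, blocks the exons, and the dashed line the lowest signal in the IDR-thresholded list, 190. At fra the tallest summits crowd in the first intron, robo1 has open circles alone, and the robo3 panel is empty apart from its exons and 3 triangles.

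sli (FBgn0264089, 2R:15869495-15922118, minus strand) encodes the midline repellent Slit. It held 3 IDR-thresholded summits in a territory of 54.6 kb, and 3 ± 0 among the strongest peaks of the replicates (SD, n = 2). The replicate numbers count summits in the territory, not shared sites. In replicate 3 they did not cover all 3 IDR-thresholded sites, since the one before the 5' end ranked lower there. The tallest, at 2R:15887055-15887293, had signal 441 and rank 1447. Its matched summit had signal 244 in replicate 1 (rank 1514) and 198 in replicate 3 (rank 1495), so both replicates placed it at nearly the same rank. It lay in intron 2, 34970 bp from the 5' end of the gene and 3769 bp downstream of an internal TSS (transcription start site) of sli.

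The second sli summit, at 2R:15913600-15913856 in intron 1, had signal 266 and rank 3467. Its matched summit had signal 188 in replicate 1 (rank 2422) and 92.1 in replicate 3 (rank 5460), so replicate 1 placed it much higher in its list. The third lay 116 bp before the 5' end of the gene, with signal 199 and rank 5382, close to the lower end of the list. It reached rank 4695 in replicate 1 and only rank 8024 in replicate 3, outside that replicate's 5707 strongest. Besides these, sli had many weak summits. Its 38 pooled summits, 6.96 per 10 kb, exceeded the number in 95.5% of the 290 genes of like length, whereas its 3 IDR-thresholded summits exceeded the number in 64.5% of them.

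NetA (FBgn0015773, X:14604012-14653928, minus strand) and NetB (FBgn0015774, X:14686038-14749376, minus strand) encode the Netrins. They lie close together, with the protein-coding gene CG5321 in the interval between their territories. NetA held 4 IDR-thresholded summits, and 4 ± 0 among the strongest peaks of the replicates (SD, n = 2). The tallest, in intron 1, had signal 610 and rank 758 in the list. Its matched summit had signal 368 in replicate 1 (rank 659) and 242 in replicate 3 (rank 954). It was higher than the tallest summit of 77.7% of the genes bound in the IDR-thresholded list, which held a median of 1 such summit. That share was not matched for number of summits. The tallest NetA summit stood 26265 bp downstream of the nearest NetA TSS. The TSS of sbm, the next gene, was slightly nearer, at 24989 bp.

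The second NetA summit, at X:14612336-14612603 in intron 2, had signal 505 and rank 1151, with 269 in replicate 1 (rank 1283) and 240 in replicate 3 (rank 971). The remaining pair in intron 1 was lower, with signal 251 at X:14633275-14633398 and 245 at X:14622164-14622587. All 4 stood more than 20 kb from a NetA start, and at 3 of them the nearest protein-coding TSS was that of sbm. At the NetA start itself both replicates had a weaker summit. There the pooled signal was 162 (rank 7124), with 93.7 in replicate 1 and 76.6 in replicate 3, below the IDR-thresholded list.

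NetB held 3 IDR-thresholded summits in a territory of 65.3 kb, and 3 ± 0 among the strongest peaks of the replicates (SD, n = 2). The tallest, in intron 3, had signal 435 and rank 1482. Its matched summit had signal 228 in replicate 1 (rank 1709) and 202 in replicate 3 (rank 1418). It stood 31573 bp downstream of the nearest NetB TSS, and the TSS of hog, inside the NetB body, lay nearer, at 1505 bp. The second summit, with signal 271 at X:14689201-14689373, lay in the last of 9 exons, in the 3' untranslated part, 59733 bp from the NetB start. The third, with signal 264 at X:14743829-14744064, lay in intron 3 at 5028 bp. The start of NetB, like that of NetA, had a weaker summit alone, with pooled signal 152 (rank 7725), 93.5 in replicate 1 and 71.5 in replicate 3. NetB had the fewest pooled summits per length of the bound members, 1.68 per 10 kb, against 5.01 at NetA.

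The 201 bases centred on the tallest NetA summit are printed because this is the strongest Gcm site of the ligand genes. They come from the Release 6 assembly (dm6), chrX:14627469-14627669, and are written 5' to 3' on the minus strand, the strand of the gene. The window holds no match to the Gcm consensus ATRCGGGY, which would be in capitals.
NetA intron 1: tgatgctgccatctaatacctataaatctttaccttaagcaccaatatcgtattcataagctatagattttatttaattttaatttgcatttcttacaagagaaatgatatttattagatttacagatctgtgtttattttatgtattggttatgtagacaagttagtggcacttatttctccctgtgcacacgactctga
The window was 29.9% G and C, against a median of 37.3% over the windows of all 5707 summits.

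Among the receptors of Slit, robo2 carried IDR-thresholded summits, robo1 pooled ones below that list and robo3 none. robo2 (FBgn0002543, 2L:1380086-1420453, minus strand), which acts in midline repulsion and places axons in the lateral pathways, held 3 IDR-thresholded summits. The tallest lay 62 bp before its TSS, with signal 381 and rank 1900. Its matched summit had signal 204 in replicate 1 (rank 2076) and 179 in replicate 3 (rank 1774). The second, in exon 3 of 14 and 24473 bp inside the gene, had signal 369 and rank 2001, with 174 in replicate 1 (rank 2745) and 197 in replicate 3 (rank 1510). The third, at 2L:1399454-1399877 in intron 1, had signal 239 and rank 4134. It ranked 3762 in replicate 1 and 5782 in replicate 3, just outside the 5707 strongest. Counted over the replicates, robo2 had 2.5 ± 0.707 strong summits (SD, n = 2).

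The exon 3 summit of robo2 was the only one of the 24 inside coding sequence, and 1 of 2 with a match to the Gcm consensus within 100 bp. The promoter window and the exon window are printed for that contrast. Both are from dm6 on the minus strand, 5' to 3'. The promoter window, chr2L:1420454-1420615, stops at the TSS, and the exon window, chr2L:1395880-1396080, is centred on the summit. Capitals mark the consensus.
robo2 promoter: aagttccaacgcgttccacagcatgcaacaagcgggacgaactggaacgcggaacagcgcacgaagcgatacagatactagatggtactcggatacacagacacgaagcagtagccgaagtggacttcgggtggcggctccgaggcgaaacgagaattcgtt
robo2 exon 3: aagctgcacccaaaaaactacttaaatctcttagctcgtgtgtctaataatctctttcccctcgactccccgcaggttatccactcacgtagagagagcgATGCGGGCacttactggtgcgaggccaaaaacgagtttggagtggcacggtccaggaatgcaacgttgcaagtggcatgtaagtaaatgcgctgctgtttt
The centre of the word lay 4 bp from the summit. The promoter window, trimmed to 162 bases, holds no match, and the full 201 bases around its summit were 55.2% G and C, the highest share among the 24 windows.

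robo3 (FBgn0041097, 2L:1256417-1296596, plus strand), a receptor that places axons in the intermediate pathways, had 0 summits in the IDR-thresholded list, 0 in the pooled list, 0 in replicate 1 and 0 in replicate 3. No measure of how uniquely reads map over this region was used here, so these counts say that no peak was called there. Its territory of 42.2 kb is almost as long as that of robo2, 42.4 kb, where the same lists held 3, 28, 31 and 26 summits. Of 367 genes with a territory within 25% of that of robo3, 55.9% held an IDR-thresholded summit and 74.4% a pooled one, which leaves 94 genes, 25.6%, with no pooled summit. About 1 in 4 genes of this length was thus empty. The nearest pooled summits lay 23.5 kb before the territory (signal 122, rank 10136) and 15.8 kb after it (signal 114, rank 10959). The stretch of 81.5 kb between them was matched or exceeded by 193 of 29994 stretches between neighbouring pooled summits, whose median was 1.16 kb. This stretch was picked for holding the empty robo3 territory, so it had to be longer than 42.2 kb. Its place among all stretches is therefore no measure of how unusual robo3 is. In the replicates' own lists the empty stretch was 73.0 kb in replicate 1 and 53.7 kb in replicate 3.

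robo3 and robo2 are neighbours on arm 2L, with 83.5 kb and 12 other protein-coding genes between their territories. That interval held 0 IDR-thresholded summits and 6 pooled ones, the highest with signal 147 and rank 8023. Both territories were alike in base composition, with 43.4% G and C at robo3 and 44.6% at robo2.

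The robo3 territory has 3 matches to the Gcm consensus, 0.711 per 10 kb, against 0.542 per 10 kb over all protein-coding territories, and that of robo2 has 4. They are printed with 11 bases on either side, read along the consensus in capitals, because the exonic pair is alike in the 2 genes.
robo2 exon 3, chr2L:1395962-1395991, minus strand: tagagagagcgATGCGGGCacttactggtg
robo3 exon 3, chr2L:1280613-1280642, plus strand: tcgcgaaacagATGCGGGCatctactggtg
robo2 exon 2, chr2L:1397096-1397125, minus strand: actgaagacggATACGGGTtcgcatcgcat
robo2 intron, chr2L:1390219-1390248, minus strand: agctgcgctcaATGCGGGTcgcataatcgc
robo2 intron, chr2L:1388387-1388416, plus strand: tgcttttgtctATGCGGGCgtttttttgct
robo3 upstream, chr2L:1255455-1255484, plus strand: attgccctcaaATGCGGGTtagcagcaagt
robo3 intron, chr2L:1270256-1270285, plus strand: tgccgccacacATACGGGCtgcctttgatt
The first pair lies in coding sequence. In both genes it is in the third annotated exon, 103 bases long, and starts at base 26 of it. These words shared 23 of 30 bases and 113 of the 200 bases around them. The other 11 pairings of a robo2 with a robo3 word shared 8 to 17 of 30 bases and 40 to 67 of 200. All these words were found by their consensus, so most bases of the word itself had to be alike in every pairing. The exonic pair codes for parts of 2 Robo receptors, and whether its likeness goes beyond that of the encoded proteins was not tested. The alike word in robo2 lay 4 bp from an IDR-thresholded summit, whereas that in robo3 lay 31801 bp from the nearest pooled summit. At the other robo2 words the nearest pooled summit was 15, 173 and 242 bp away, and at the other robo3 words 24571 and 39372 bp.

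robo1 (FBgn0005631, 2R:22692524-22700970, minus strand) is the main Slit receptor, the one that keeps axons from crossing back over the midline. It had 0 IDR-thresholded summits and 4 pooled ones, and its territory of 10.4 kb is by far the shortest of the 8. Of 1249 genes of like length, 42.0% had an IDR-thresholded summit. The highest robo1 summit, at 2R:22700109-22700532, lay 274 bp downstream of a robo1 TSS and had pooled signal 172 and rank 6542, somewhat below the limit of 190. It had signal 104 in replicate 1 (rank 6247) and 86.6 in replicate 3 (rank 6001), outside the 5707 strongest of both. Another, in the 3' untranslated part with pooled signal 154 (rank 7589), had signal 92.8 in replicate 3 and rank 5386 there, inside the strongest, but rank 9847 in replicate 1. robo1 thus had 1 strong summit in replicate 3 and 0 in replicate 1, an average of 0.5 ± 0.707 strong summits (SD, n = 2).

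fra (FBgn0011592, 2R:12529053-12564184, plus strand) encodes Frazzled, the attractive Netrin receptor, and carried the most and the tallest IDR-thresholded summits of the 8 genes. It held 6, a number reached or passed by 117 bound genes, or 2.97% of them. Of 397 genes of like length, 92.2% had fewer IDR-thresholded summits and 83.9% had fewer than its 21 pooled ones. The tallest, at 2R:12543625-12543994 in intron 1, had signal 1299 and rank 131. Its matched summit had signal 791 in replicate 1 (rank 105) and 513 in replicate 3 (rank 166). At 1299 the tallest fra summit was 4.35 times the list median. It was higher than the tallest summit of 95.4% of the bound genes, which were not matched for number of summits. It stood 14770 bp from the fra TSS, and the nearest protein-coding TSS was that of CG33752, inside the fra body and 1866 bp away.

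The next fra summits lay in the same intron. That at 2R:12538030-12538528 had signal 738 (rank 494), with 431 in replicate 1 and 318 in replicate 3. That at 2R:12540742-12540987 had signal 470 (rank 1303), with 262 in replicate 1 and 211 in replicate 3. Each of these tall summits ranked 1345 or better in both replicates. The other 3 were low, with signal 229, 217 and 201. Of these, the summit of 229 at 2R:12554527-12554707 had a match to the Gcm consensus 11 bp away, and that of 201 lay 141 bp downstream of the fra TSS. In replicate 3 both ranked outside the 5707 strongest, at 6246 and 8049. fra had 6 ± 1.41 strong summits over the replicates (SD, n = 2), 7 in replicate 1 and 5 in replicate 3.

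unc-5 (FBgn0034013, 2R:15340472-15368300, plus strand), which encodes the repulsive Netrin receptor, held 5 IDR-thresholded summits, and 5 ± 0 among the strongest peaks of the replicates (SD, n = 2). The tallest, at 2R:15349816-15350170, had signal 374 and rank 1947, with 218 in replicate 1 (rank 1850) and 150 in replicate 3 (rank 2433). It lay 142 bp before an internal TSS of unc-5 and 9519 bp from the 5' end of the gene. The summit of 317 at 2R:15339628-15339749 stood 802 bp upstream of the gene, the only one of the 24 outside both gene body and promoter. The other 3 lay in introns, with signal 328 in intron 6, and 260 and 191 in intron 2. The summit of 328 had signal 149 in replicate 1 (rank 3615) and 172 in replicate 3 (rank 1903), so replicate 3 placed it higher in its list. The summits of unc-5 were thus many but of middling height. Of 466 genes of like length 89.5% had fewer IDR-thresholded summits and 93.8% fewer pooled ones. The tallest unc-5 summit exceeded that of 52.2% of bound genes, which were not matched for number of summits.

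**Figure D2:**
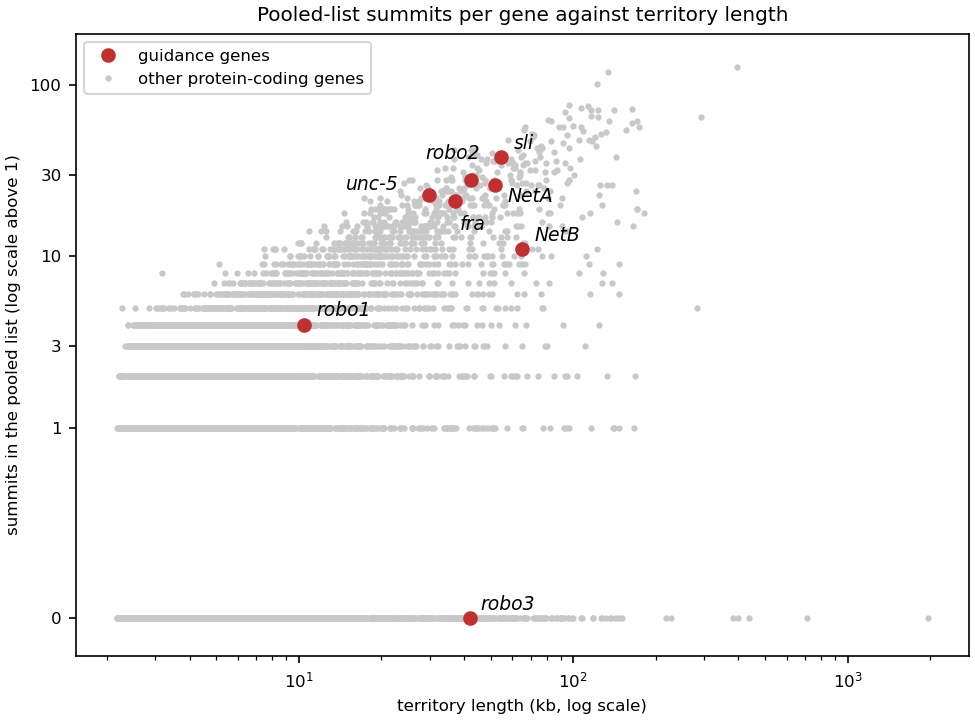
Number of pooled summits per gene on the vertical axis, logarithmic above 1, against territory length in kb on a logarithmic axis, with the 8 guidance genes in red and all other protein-coding genes in grey. sli, robo2, fra, NetA and unc-5 lie in the upper part of the cloud with 21 to 38 summits, NetB lies lower with 11, and robo3 lies on the line of genes with 0.

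Both replicates placed a summit within 150 bp of each of the 24, and of 98.1% of all 5707. The IDR-thresholded list was derived from both replicates, so this presence was in large part given in advance. Of the 24, 19 (79.2%) were inside the 5707 strongest peaks of both replicates, against 77.4% of all. Replicate 1 had 23 (95.8%) among its strongest, against 89.2% of all, and replicate 3 had 20 (83.3%), against 86.8% of all. The 4 that replicate 3 ranked lower were the promoter summits of sli and fra, the intron 1 summit of robo2 and the fra summit with the consensus, and the 1 that replicate 1 ranked lower was the lowest of unc-5. The order of the tallest summits was the same in both replicates for fra, which came first, and NetA, which came second.

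**Figure D3:**
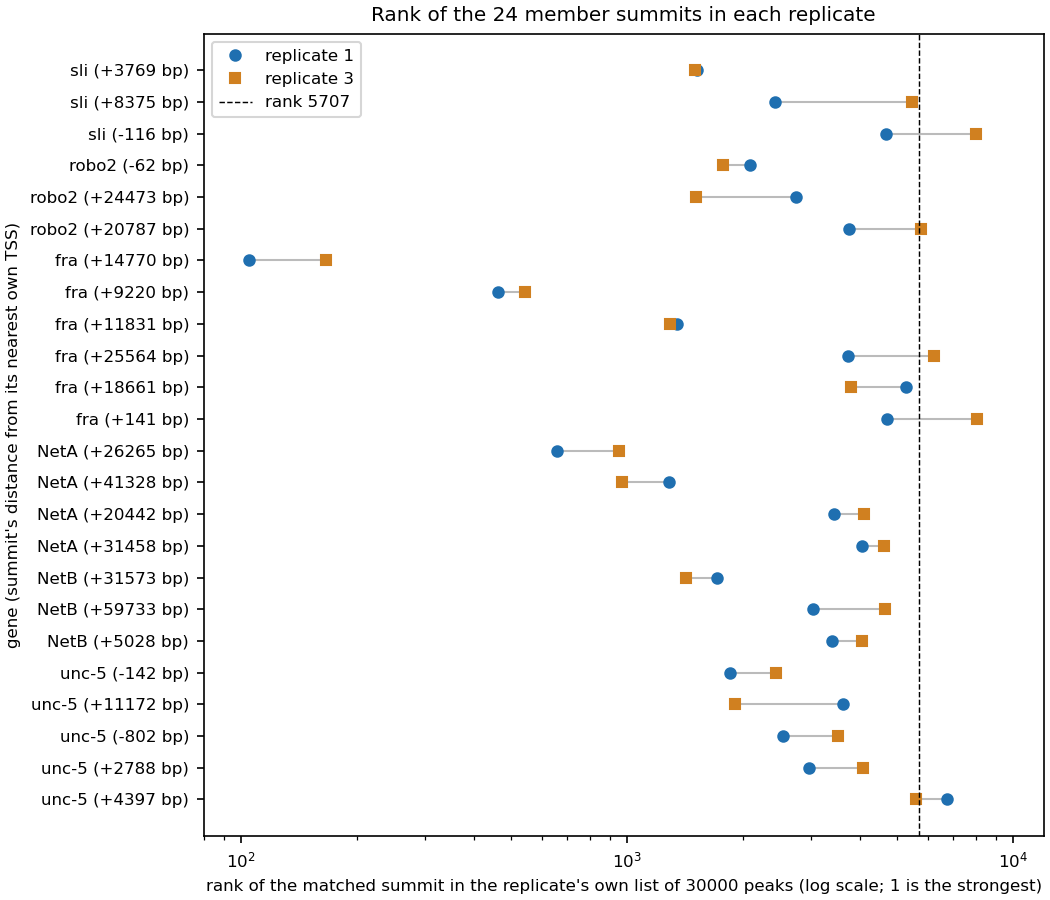
Rank of each of the 24 summits in the list of replicate 1 (circles) and replicate 3 (squares), on a logarithmic axis on which 1 is the strongest peak, with a row per summit named by gene and distance from the nearest own TSS. The dashed line is rank 5707. The tallest fra summits stand apart at the left with ranks of 105 to 542, and 4 squares and 1 circle lie to the right of the line.

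The summits of the guidance genes were mostly far from start sites. These genes are long, with a median territory of 42.3 kb against 4.17 kb over all protein-coding genes. The shares over all summits given below were not matched for gene length. Of the 24, 4 (16.7%, 95% interval 4.74 to 37.4) lay within 500 bp of a protein-coding TSS, against 39.5% of all 5707. The count was 2 without replicate 1, and 2 with the gene body alone, since the sli and robo2 promoter summits lie upstream of the body. Introns held 17 (70.8%, 48.9 to 87.4), against 38.4% of all. The sets differ by rule, since 19.2% of all 5707 summits were intergenic and the territories reach only 2000 bp beyond a gene. Intervals are exact Clopper-Pearson intervals and cover counting error only, and summits of a gene are not independent of each other. In the longest transcript of each gene 18 lay in an intron, 11 of them in intron 1. The median distance from the nearest own TSS was 11501.5 bp. At 13 of the 24 the nearest protein-coding TSS was the guidance gene's own, and at the other 11 it was that of sbm, hog, CG5321, CG33752, CG30056 or Pms2. Of these, hog starts inside the body of NetB, and CG33752 and CG30056 start inside that of fra. However, 0 of the 24 lay in the body of another protein-coding gene. A summit is assigned here by position, and which gene it acts on was not measured.

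Counted at their own start sites, 4 of the 8 genes (sli, robo2, fra and unc-5) had an IDR-thresholded summit within 500 bp of a TSS, against 18.9% of all protein-coding genes. In the pooled list 7 of 8 did, against 41.4%, and the same number did in replicate 1 and in replicate 3. The starts of robo1, NetA and NetB thus had summits in both replicates at ranks between 6001 and 7808, below the IDR-thresholded list. Among the 127 pooled summits below that list, 8 (6.30%) were at a promoter, against 21.8% of all such summits. None of these shares over all genes or summits was matched for gene length or number of TSSs.

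The Gcm consensus was found at few of these summits. Within 100 bp of the summit ATRCGGGY, sought on both strands, was found at 2 of 24 (8.33%, 95% interval 1.03 to 27.0), against 9.76% of all 5707 windows. The count was 1 without replicate 1, and 1 with the single word ATGCGGGT. In equal windows 1000 bp to the left it was found at 0 of 24, which with 24 windows allows a share of up to 14.2% (upper bound of the 95% interval), and at 1.10% of all. Of the 17 matches in the 8 territories, 2 (11.8%) lay within 100 bp of an IDR-thresholded summit and 6 (35.3%) of a pooled one. Over all protein-coding territories, 8.43% and 21.5% of 5351 matches did. The tallest summit of each of the 6 bound genes had none.

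Other short words were counted in the same windows, on both strands. The GATA word WGATAR was found at 7 of 24 summits (29.2%), against 38.1% of all, and in the left windows at 41.7% of the guidance genes' and 30.3% of all. GAGAGAG, the word bound by GAGA factor, was found at 3 (12.5%), against 6.61% of all, and in the left windows at 4.17% of the guidance genes' and 3.42% of all. ACGTG, the core of the midline element bound by Sim with Tango, was found at 4 (16.7%), against 13.6% of all, and in the left windows at 4.17% and 16.4%. With 24 windows the 95% intervals of these shares, 12.6 to 51.1%, 2.66 to 32.4% and 4.74 to 37.4%, all hold the share over all summits.

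Further genes of Slit and Netrin signalling, listed together with the midline regulator sim, also carried Gcm summits. Of 22 listed, 18 (81.8%) held an IDR-thresholded summit, against 28.2% of all protein-coding genes and 58.5% of those with a territory of at least 20 kb. A pooled summit was held by 21, against 51.2% of all. Of the genes with a territory of at least 20 kb, 24.1% had no pooled summit. The list was chosen with earlier results of these data known. It had 59 IDR-thresholded summits in all. The median territory of the 22 was 29.0 kb. The median of the tallest summits was 438 for the 6 bound guidance genes, against 324 for the bound genes of this list and 362 for all bound genes. These medians were not matched for number of summits. The 6 held a median of 3.5 IDR-thresholded summits, against 1 for all bound genes. The tallest was at sim, the regulator of midline fate, in an intron, with signal 921 (rank 303), 508 in replicate 1 and 414 in replicate 3. comm3, of the commissureless family, followed with 730 in an intron, 452 in replicate 1 and 285 in replicate 3, although the TSS of Phs was the nearest. dlp, a cell surface heparan sulphate proteoglycan, had 8 summits, the most of the list, and its tallest had signal 702, a match to the consensus, and CG43121 as nearest TSS.

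chb, a microtubule plus-end protein that acts downstream of Slit and Robo, had a single summit 212 bp from its TSS, with signal 592 (rank 818), 337 in replicate 1 and 270 in replicate 3. Trim9, a ubiquitin ligase that acts with Frazzled, had 7 summits, the tallest 1271 bp from its TSS with signal 467. comm, which sorts Robo receptors away from the growth cone, had 2, the tallest 36 bp from its TSS with signal 375, 223 in replicate 1 and 154 in replicate 3. Nedd4, Pak, Ptp69D and Sos had 0 IDR-thresholded summits, and Sos had 0 in the pooled list too.

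**Figure D4:**
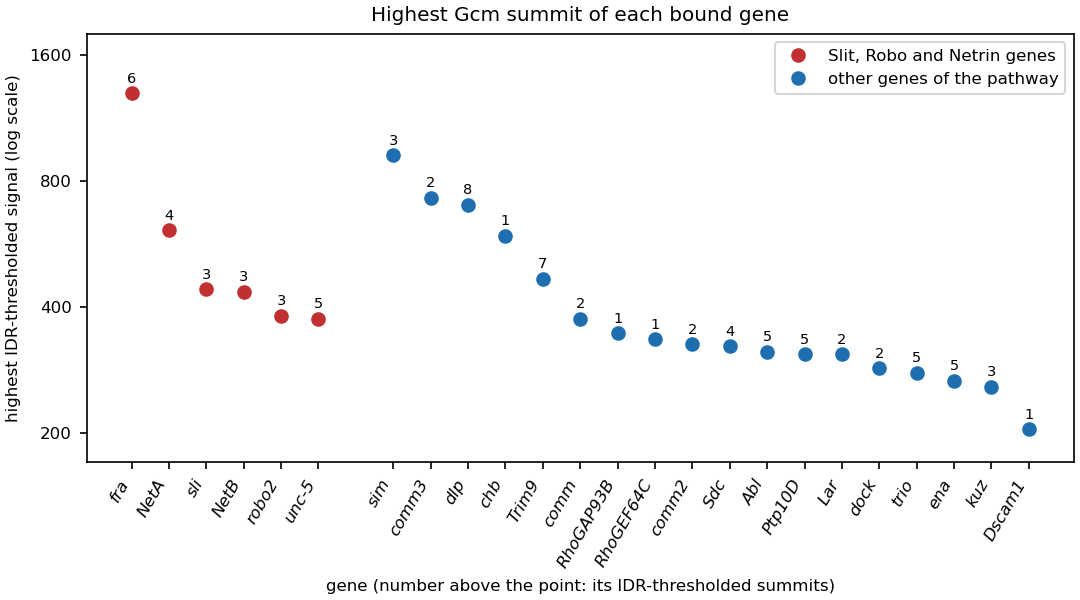
Signal of the tallest IDR-thresholded summit of each bound gene on a logarithmic axis, with the number of its IDR-thresholded summits above the point, for the Slit, Robo and Netrin genes (red) and the other listed genes, sim among them (blue). fra at 1299 is the highest of both sets, and sim at 921 the highest of the blue set.

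For scale, each bound member was set beside the protein-coding gene with the same number of IDR-thresholded summits, a territory within 25% of its length and the nearest tallest signal. This was NFAT for fra (1299 at fra, 1314 at NFAT, with 6 summits each) and Drak for NetA (610 at NetA, 629 at Drak, with 4 each). It was Zdhhc8 for unc-5 (374 at unc-5, 347 at Zdhhc8, with 5 each) and Cda5 for robo2 (381 at robo2, 374 at Cda5, with 3 each). For sli it was dve (441 at sli, 443 at dve), and for NetB it was sli (435 at NetB, 441 at sli), all with 3. Likeness here is in number, length and height alone.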

How the data were processed

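Gcm-GFP ChIP-seq was carried out on 2 biological replicates, numbered 1 and 3. The authors deposited peak lists per replicate, for the pool and after IDR thresholding, on dm6, per the file headers. Per the file descriptions deposited with them, all share 1 control file, not analysed here. No source used here gives the aligner, the caller or the IDR threshold. The deposited signal value of each peak gave height and rank. The deposited −log10 q-value has a ceiling shared by many peaks and was not used for ranking. Where nothing states how separately the embryos were collected, the spread between replicates may be technical.

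The annotation was Ensembl release 115 (BDGP 6.54), with the bases of the Release 6 assembly. A territory was the gene body plus 2000 bp upstream, and a promoter summit lay within 500 bp of a protein-coding TSS. The Gcm consensus was sought within 100 bp of a summit, and likewise around the position 1000 bp to its left. A replicate's matched summit was its highest within 150 bp, a rule chosen after seeing the data. Genes of like length had territories within 25%. With 1 group no test between groups was made, so counts are given beside those over all genes or summits. Named were all 8 members with each IDR-thresholded summit or the strongest pooled one, the gene of the nearest other TSS, the most alike gene per bound member and the 6 pathway genes with the tallest summit. The members, lists and words were chosen with earlier results of these data known. The pathway list held comm, comm2, comm3, Nedd4, kuz, Sdc, dlp, Dscam1, ena, Abl, trio, dock, Pak, RhoGAP93B, Sos, RhoGEF64C, Trim9, Ptp10D, Ptp69D, Lar, chb and sim. Code ran in Python 3.11.15 with numpy 2.4.6, pandas 2.3.3, scipy 1.17.1 and matplotlib 3.10.9, and was checked on simulated peaks. Alternatives tried were other territories, promoter and word distances, the single word, other lists, peak overlap and each replicate left out.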

Additional observations from a re-analysis of the deposited data

How the results depend on the processing

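Under the alternatives tried, 6 or 7 of the 8 genes were bound, with 7 in the whole pooled list and without replicate 1, where robo1 gained 1 summit. robo3 had 0 under all of them. The 24 summits became 12 in the strongest 2853 peaks of the IDR-thresholded list and 151 in the pooled list, while the remaining alternatives gave 21 to 26, and 23 to 25 when a replicate was left out. The 4 promoter summits became 2 with the gene body alone, 2 in those strongest peaks and 12 in the pooled list, and 2 to 4 when a replicate was left out, with 2 without replicate 1. A promoter distance of 250 bp gave 4 and of 1000 bp gave 5. The 2 summits with the consensus became 1 in those strongest peaks, 6 in the pooled list and 1 with the single word ATGCGGGT, and 1 to 2 when a replicate was left out, with 1 without replicate 1. Distances of 50 and 250 bp for the word both gave 2. With 5000 bp upstream robo2 had 5 summits in place of 3. Matching replicates by overlapping peaks, an alternative chosen after seeing the data, put 17 in place of 19 summits inside the strongest peaks of both. The pooled and shortened lists differ from the main list by construction in length, and the cause of the other changes was not tested. No paired analysis was possible because there is 1 group. Counts of 2 or 4 among 24 summits fix a share only within wide intervals, and with read depth and unique mapping not measured a gene without summits, such as robo3, is one at which no peak was called and not one shown to be free of Gcm.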

Other observations

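Some IDR-thresholded summits lay just outside the territories. Before robo2, 1 stood 2501 bp upstream of the gene at 2L:1422823-1423074, with signal 398 and rank 1742, higher than any summit inside the robo2 territory. It had signal 234 in replicate 1 (rank 1627) and 166 in replicate 3 (rank 2034), and the nearest protein-coding TSS was that of robo2. Another stood 4561 bp upstream with signal 224 (rank 4547), 124 in replicate 1 and 112 in replicate 3, nearer to the TSS of CG43401. Between the territories of NetA and NetB, an interval of 30.1 kb held 1 IDR-thresholded summit, at X:14679341, with signal 250 and rank 3854, and 4 pooled ones.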
